A study of Mus musculus with 11 samples.

Results

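Plasmacytoid dendritic cells (pDC) of the mouse lung were described from single-cell RNA counts of whole lung. A barcode (the tag of 1 droplet) was taken as a pDC when it held at least 3 molecules of Siglech and Ccr9 together, at least 2 of them Siglech, with 0 of Cd3e, at most 1 of Cd79a and 0 of C1qa. Siglech encodes a sialic acid-binding lectin of mouse pDC, Ccr9 a homing receptor for the chemokine CCL25, Cd3e a T cell receptor subunit, Cd79a a B cell receptor subunit and C1qa a complement component of macrophages. Of 81983 deposited barcodes, 69267 passed the study's stated limits of 1000 to 30000 molecules and at most 14% mitochondrial molecules, and 238 of those met the gate. The members were therefore chosen by Siglech and Ccr9, and their levels of these genes, like any contrast of pDC with other cells, are a description with no test.

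Plasmacytoid dendritic cells are bone marrow-derived cells that circulate in blood and lodge in small numbers in tissues such as the lung. They sense viral and self nucleic acids in endosomes through Toll-like receptors, signal through MyD88 and IRF7, and can release large amounts of type I interferon. Their identity depends on the transcription factor E2-2, the product of Tcf4, and they share precursors with both conventional dendritic cells and the lymphoid lineage.

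All 11 libraries came from total cells of enzyme-digested mouse lung after red blood cell lysis, captured by a droplet 3′-end assay with unique molecular identifiers (UMIs, tags that count each captured RNA molecule once). The control group p21Het (3 libraries) was heterozygous for p21, the gene Cdkn1a, which encodes an inhibitor of the cell cycle (+/-). The group p21mTert (5 libraries) carried 1 mTert allele at p21 (+/mTert), where Tert encodes the catalytic subunit of telomerase, and the group p21mTertCD (2 libraries) carried 1 mTertCD allele (+/mTertCD). The labels spell out neither the abbreviation CD nor the promoter that drives either allele. A single wild-type library (WT, +/+) gave values only. The titles give an age of 18 months throughout, while the age field gives 19 months for p21Het library 1 and 20 months for p21mTert library 1, and these 2 libraries and WT were submitted earlier than the other 8, so age and submission cannot be told apart there. Nothing in the labels says that libraries of a group came from separate mice, so the p-values below measure the spread between libraries, which may be technical.

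The libraries held 5686 to 10525 barcodes, of which 4721 to 8525 passed. The pDC were deeply covered cells: their median per library was 9595 to 12823 UMIs and 2881 to 3520 genes, against 4133 to 6454 UMIs and 1600 to 2081 genes over all passing barcodes. Of 80908 distinct barcode sequences 961 occurred in more than 1 library, and 6 pDC had a barcode sequence that another library also held, with 0 of them a pDC in both. Doublets were not removed. Scrublet, which scores barcodes against simulated doublets, was set to mark 4.55% to 8.42% of a library and marked 23 of the 238 pDC. UMI counts of 3′ ends were not divided by gene length, and all levels below are counts per 1000000 (CPM), the UMIs of a gene over all UMIs of the barcodes summed in a library.

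The label fitted most but not all members. Siglech ranged from 2 to 64 UMIs per member with a median of 24, and Ccr9 from 0 to 64 with a median of 11 and 20 members at 0. Bst2, the interferon-inducible membrane protein tetherin that the pDC-specific antibody PDCA-1 recognises, took no part in the gate and was found in 236 of 238 members with a median of 39 UMIs. Near the lower edge of the gate, 3 members had a Siglech and Ccr9 sum of 3, and 40 barcodes lay just outside with a sum of 2. Pooled Bst2 was 3340 CPM in the 235 members above that edge, 1782 CPM in the 3 just inside and 709 CPM in the 40 just outside. Pooled Irf8 was 2448, 56.6 and 914 CPM in these sets. Cox6a2, which encodes a cytochrome c oxidase subunit, had a UMI in 80.9%, 0% and 7.50% of them. Of the 40 barcodes just outside, 85% had a UMI of Bst2, 87.5% of Tcf4 and 85% of Irf8.

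Before any comparison, 7 members stood apart with the profile of conventional type 1 dendritic cells (cDC1), the cross-presenting dendritic lineage, in 1 of them only in part. They were defined after the data were seen as members with at least 3 UMIs of Xcr1, a chemokine receptor, and Itgae, the integrin CD103, and they held 10 to 26 such UMIs where the other 231 members held at most 2. WT held 2 of them, p21mTert libraries 1, 3, 4 and 5 held 1 each, p21mTertCD library 1 held 1, and the 3 p21Het libraries, p21mTert library 2 and p21mTertCD library 2 held 0. Their Siglech counts were 3 to 5 UMIs, and Runx2, Cox6a2, Klk1 and Spib were at 0 in all 7. Xcr1 and Clec9a, another cDC1 marker, had a UMI in 6 of the 7. The member in p21mTert library 1 had 0 of both, with 2 UMIs of Irf8 and 4 of Naaa. It entered by 12 UMIs of Itgae and held 13 of Wdfy4, a gene of the cDC1 list, so its cDC1 name rests on fewer markers. Pooled Bst2 was 105 CPM in these 7, 3494 CPM in the other 231 members and 132 CPM in barcodes gated as cDC1. Pooled Naaa, an acid amidase typical of cDC1, was 1045 CPM in the 7, 13.5 CPM in the other 231 and 854 CPM in the cDC1 gate. The invariant chain gene Cd74 was 20914 CPM in the 7, 4101 CPM in the other 231 and 18954 CPM in the cDC1 gate. The 7 were also the richer barcodes, with 17996 to 23545 UMIs against a median of 11029 in the other 231, and Scrublet marked 0 of them. Of the other 231 members, 1 in p21Het library 2 also had an identity sum within the range of the 7, at 1171 CPM, with 8199.6 CPM of the antigen presentation list. The 7 members go against the pDC label, and the shares, the called genes and the gene groups they touch most are given with and without them.

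**Figure D1:**
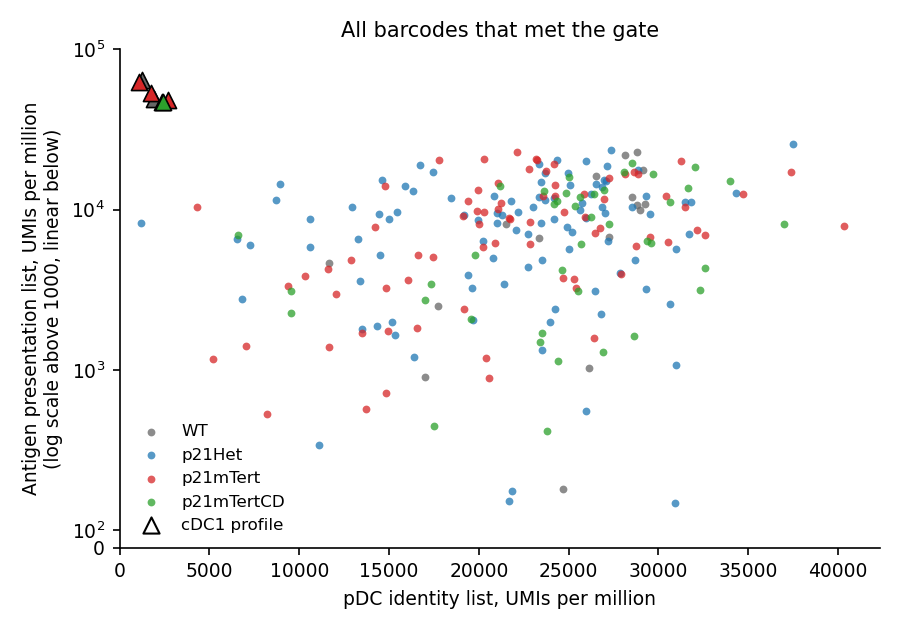
Each point is 1 of the 238 members: the summed level of the 30-gene pDC identity list (horizontal) against that of the 18-gene antigen presentation list (vertical, log scale above 1000), both in CPM of that member, coloured by group. The 7 members with a cDC1 profile (triangles) sit at 1056 to 2676 on the identity list and 46701 to 64543 on the antigen list, while the other 231 have medians of 23608 and 8259. The lowest identity sum among the other 231 is 1171, in p21Het library 2.

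Another 10 members carried over 4000 CPM of a list of genes of epithelial, endothelial, fibroblast, erythroid, macrophage or NK cells, and Scrublet marked 6 of these 10. The richest, in p21Het library 2, reached 120301 CPM of the epithelial list and also passed 4000 CPM of the macrophage list. In p21mTert library 3, 1 member reached 27378 CPM of the fibroblast list. The summed cDC2 marker list had a median of 1728 CPM in pDC (1445 to 2261) against 1165 CPM in other barcodes (804 to 1593). The cDC1 marker list had a median of 327 CPM in pDC against 219 CPM in other barcodes, and of 152 CPM in pDC (115 to 196) without the 7 cDC1-profile members. The transitional dendritic list had a median of 2716 CPM in pDC and 3521 CPM in other barcodes. B cell markers summed to 607 to 1516 CPM per library in pDC against 5333 to 24501 CPM in all other barcodes. Macrophage and monocyte markers, with F13a1 at 0, summed to a median of 488 CPM against 8991 CPM in other barcodes, and neutrophil markers to 28.9 CPM against 6381 CPM. The gate had limited Cd79a and C1qa, so the low B cell and macrophage sums were partly set by the choice of members.

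The identity program of pDC was present in every library. Of the 30 genes of the pDC identity list, 29 had a higher mean level in pDC than in all other barcodes, and 29 were above both the cDC1 gate and the cDC2 gate (conventional type 2 dendritic cells, chosen by Cd209a). The exception was Cadm1, an adhesion molecule also made by cDC1, at 48.3 CPM in pDC and 231 CPM in the cDC1 gate. The summed list was 11823 to 26334 CPM in pDC (14715 to 26334 CPM without the 7 cDC1-profile members) and 1637 to 2197 CPM in other barcodes. Over the 11 libraries Tcf4 was 2029 ± 383 CPM (SD, n = 11) in pDC and 166 CPM in other barcodes. Irf8, a transcription factor of dendritic and B cells, was 2300 ± 560 CPM (SD, n = 11) in pDC, 1166 CPM in the cDC1 gate and 62.1 CPM in the cDC2 gate. Runx2, a runt-domain factor known to act in pDC egress from bone marrow, was 527 ± 127 CPM (SD, n = 11) in pDC and 25.6 CPM in other barcodes.

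Gm21762, a predicted protein-coding gene, was 274 CPM in pDC and 0.186 CPM in other barcodes. Klk1, a tissue kallikrein, was 424 CPM in pDC and 0.402 CPM in other barcodes. Its neighbour Klk1b27 was 117 CPM in pDC, and since kallikrein genes are near-copies of each other the split between them is uncertain. Klk1 was uneven across libraries, running from 10.8 CPM in p21mTertCD library 1 to 952 CPM in p21mTert library 2, and it had a UMI in 132 of 238 members. Cd300c, an activating receptor, was 228 CPM in pDC against 0.846 CPM in other barcodes, and Upb1, the β-ureidopropionase of pyrimidine breakdown, was 295 CPM against 2.28 CPM (31.7 CPM in the cDC2 gate). Cox6a2 was 898 CPM in pDC and 20.7 CPM in other barcodes, where the cDC1 and cDC2 gates had 0.485 and 0.412 CPM. Pacsin1, an endocytic adaptor with a role in pDC interferon release, was 224 CPM against 4.88 CPM.

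Lair1, an inhibitory receptor for collagen, was 527 CPM in pDC and 39.8 CPM in other barcodes. Cd7, a surface protein of lymphoid cells, was 437 CPM against 24.6 CPM (122 CPM in the cDC2 gate), and P2ry14, a receptor for UDP-glucose, was 358 CPM against 18.1 CPM (95.9 CPM in the cDC1 gate). Cd209d, a C-type lectin, was 214 CPM in pDC against 2.64 CPM in other barcodes and 53.6 CPM in the cDC2 gate, and Lrp8, a receptor of the LDL receptor family, was 136 CPM against 2.71 CPM. Rnase6, an antimicrobial ribonuclease, was 610 CPM in pDC against 40.0 CPM in other barcodes and 149.5 CPM in the cDC1 gate. Lefty1, a secreted antagonist of the TGF-β family, was 139 CPM against 2.27 CPM, and Kmo, an enzyme of kynurenine metabolism, was 185 CPM against 8.97 CPM (50.1 and 56.7 CPM in the cDC1 and cDC2 gates). Smim5, Ppfia4, Klra17, Paqr5 and AC140186.1 completed the set, at 305, 226, 119, 108 and 124 CPM in pDC and 0.969 to 17.2 CPM in other barcodes.

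**Figure D2:**
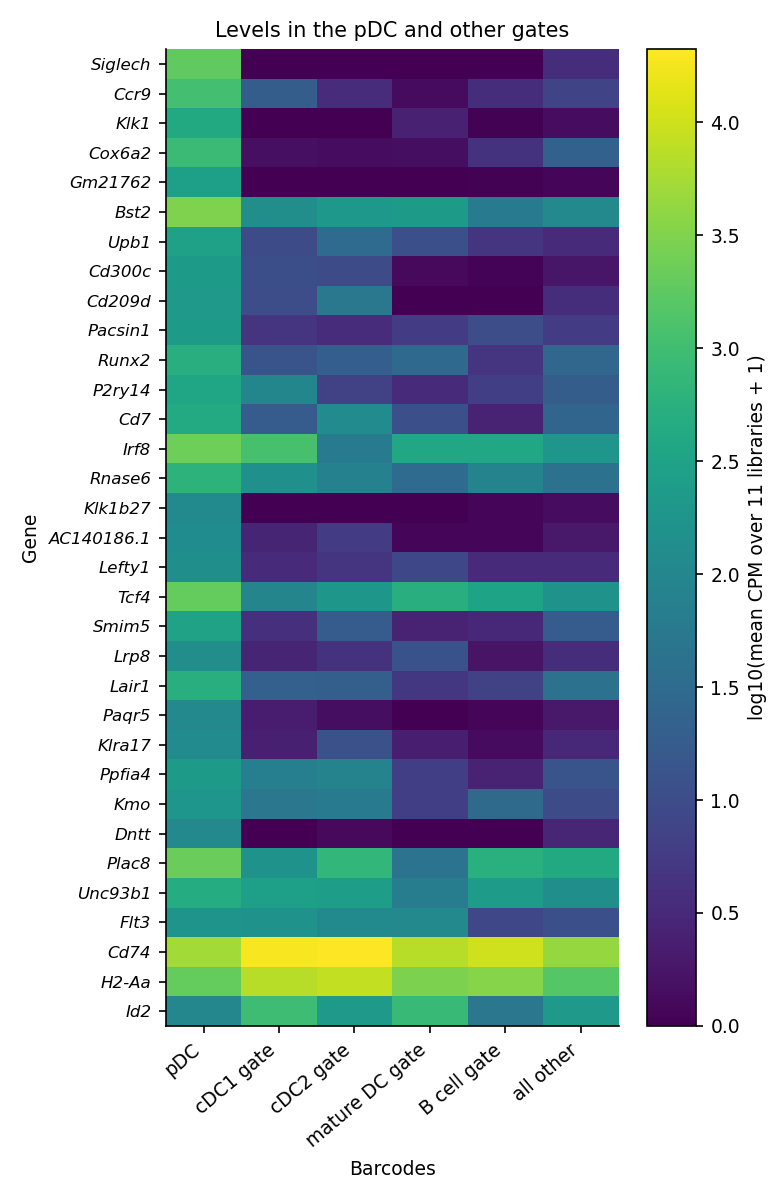
Mean level over the 11 libraries, as log10(CPM + 1), of Siglech, Ccr9, the 25 genes with the highest ratio of pDC to other barcodes and 6 further genes (rows) in the pDC, 4 other gates and all other passing barcodes (columns). Klk1, Klk1b27, Gm21762 and Cox6a2 are near 0 in both conventional dendritic gates, while Irf8 is shared with the cDC1 gate and Cd74 is lower in pDC than in either conventional gate.

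Genes of the lymphoid side were also read in pDC. Ighm, the constant region of the IgM heavy chain, had a UMI in 231 of 238 members and a mean of 678 CPM, against 84.2 CPM in the cDC1 gate and 7643 CPM in the B cell gate. With each barcode thinned to 1000 UMIs, which removed no member, Ighm was found in 48.7% of pDC, 9.35% of cDC1 and 86.9% of B cells. Iglc3, an immunoglobulin light chain constant region, was found after thinning in 27.3% of pDC and in 0% of the 3 other dendritic gates. Igkc, another light chain constant region, was found in 18.1% of pDC, 13.9% of cDC1, 8.55% of cDC2 and 14.1% of mature DC. Of the 10 B cell markers 1 had a higher mean in pDC than in other barcodes, and 10 were above both conventional gates. Ms4a1, which encodes the B cell surface protein CD20, had a UMI in 3 members. Dntt, the terminal transferase of lymphoid precursors, averaged 109 CPM in pDC, 0 CPM in the cDC1 gate and 0.0279 CPM in the B cell gate. Ly6d, a surface marker of lymphoid-primed precursors, was at 1624 CPM in pDC and 1535 CPM in the B cell gate, and at 1.94 CPM in the cDC1 gate. Cd4, the T cell co-receptor that some mouse pDC also carry, was found after thinning in 9.24% of pDC and in 0% of the 3 other dendritic gates. The T cell genes Cd3d and Trac averaged 0.243 and 1.37 CPM. The gate had left out barcodes with Cd3e or with more than 1 UMI of Cd79a. Low levels of Cd3d, Trac and Ms4a1 were thus partly set by the choice of members.

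Of the 17 genes of the nucleic acid sensing list, 15 had a higher mean in pDC than in other barcodes. Tlr7, the receptor for single-stranded RNA, was 79.3 CPM with a UMI in 126 members, and after thinning it was found in 9.66% of pDC against 0.161% of cDC1 and 1.26% of B cells. Tlr9, the receptor for unmethylated DNA, was 2.65 CPM with a UMI in 8 members and in 0% of pDC after thinning, so that no level could be read for it at this depth. Unc93b1, which carries these receptors to endosomes, was 475 ± 51.4 CPM (SD, n = 11) in pDC and 139 CPM in other barcodes. Irf7, the factor that switches on interferon genes, was 107 CPM, and Plac8, a small cysteine-rich protein of pDC and other leukocytes, was 2126 CPM in pDC against 418 CPM in other barcodes.

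No interferon transcript was read in pDC. The 20 type I and III interferon genes of the matrix had 0 UMIs in all 238 members, which allows at most 1.26% of members with such a UMI and a pooled level of at most 1.07 CPM. All other passing barcodes together had 75 such UMIs. Intervals and limits of this kind cover counting error only. Of the 34 interferon-stimulated list genes in the matrix, 10 had a higher mean in pDC than in other barcodes. The 34 summed to a median of 1334 CPM in pDC, 1645 CPM in other barcodes, 989 CPM in the cDC1 gate and 3668 CPM in the cDC2 gate. Ifi27l2a, an interferon-induced mitochondrial protein gene, led the list at 550 ± 249 CPM (SD, n = 11) against 332 CPM in other barcodes. Isg15, a ubiquitin-like modifier, was 26.2 CPM against 55.8 CPM, and Ifitm3, an antiviral membrane protein, 128 CPM against 644 CPM.

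Genes of the secretory pathway, which loads and folds proteins for export, were mostly higher in level: 27 of 30 had a higher mean in pDC than in other barcodes and 24 of 30 were above both conventional gates. Sec61b, a subunit of the channel into the endoplasmic reticulum, was 926 CPM in pDC, 477 CPM in the cDC1 gate and 306 CPM in other barcodes. Herpud1, a factor of endoplasmic reticulum-associated degradation, was 351 CPM in pDC and 238 CPM in the cDC1 gate. The chaperones Hspa5 and Calr went the other way, at 556 and 495 CPM in pDC against 637 and 653 CPM in the cDC1 gate.

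Of 18 antigen presentation genes, 0 had a higher mean in pDC than in both conventional gates and 6 had a higher mean than in other barcodes. The summed list had a median of 11364 CPM in pDC (8196 CPM without the 7 cDC1-profile members), 9486 CPM in other barcodes and 44842 CPM in the cDC1 gate. Cd74 was 5241 CPM in pDC (3792 CPM without the 7 cDC1-profile members), 4332 CPM in other barcodes, 19055 CPM in the cDC1 gate and 21007 CPM in the cDC2 gate. H2-Aa, the α chain of MHC class II, was 2030 CPM in pDC (1424 CPM without the 7), 1494 CPM in other barcodes and 7295 CPM in the cDC1 gate. H2-Ab1, the β chain that pairs with it, was 1944 CPM in pDC (1174 CPM without the 7) and 1412 CPM in other barcodes. H2-Eb1, another β chain, was 1389.6 CPM in pDC (735 CPM without the 7) and 1278 CPM in other barcodes. Without the 7 these 4 of the 6 genes were thus lower in pDC than in other barcodes. The costimulatory genes Cd80 and Cd86 were 5.61 and 32.6 CPM in pDC, and Ccr7, the receptor that leads dendritic cells to lymph nodes, was 14.2 CPM.

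Several homing and growth factor genes differed in level from conventional dendritic cells, as a description with no test. Selplg, a selectin ligand, had a UMI in 100% of members at 742 CPM, against 344 CPM in the cDC1 gate. Ccl4, a chemokine, was uneven, from 97.5 CPM in p21mTertCD library 1 to 1667 CPM in p21mTert library 1. Flt3, the receptor for the dendritic growth factor FLT3L, was 173 ± 41.6 CPM (SD, n = 11) in pDC, close to the 161 CPM of the cDC1 gate and far above the 10.3 CPM of other barcodes. Il7r, the interleukin-7 receptor of lymphoid cells, was 200 CPM in pDC and 10.9 CPM in the cDC1 gate. Of the 18 genes of the cell cycle list, 3 had a higher mean in pDC than in other barcodes: Tubb5, a tubulin, at 241 against 217 CPM, Pcna, the sliding clamp of DNA replication, at 47.5 against 44.6 CPM, and Mcm2, a replication helicase subunit, at 15.4 against 11.97 CPM. H2afz, a histone variant, was 427 CPM in pDC and 553 CPM in other barcodes. Pcna had a UMI in 43.7% of members, Mki67 in 7 members and Top2a in 2. The summed list had a median of 799 CPM in pDC, 1077 CPM in other barcodes and 2477 CPM in the cDC1 gate. After thinning Mki67 was found in 0.420% of pDC, 5.97% of cDC1 and 0.378% of B cells.

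Among the 231 members without the cDC1 profile, expression varied along 1 main axis, which held 9.89% of the variance of 957 genes against 2.89% for the next. The gate genes and mitochondrial genes took no part in it, the axis was found after the values were seen, and it is given with no test. At one end, the 58 members with the lowest scores had 2652 CPM of Ly6d, 1464 CPM of Cox6a2, 1000.0 CPM of Klk1 and 738 CPM of Iglc3. At the other end, the 58 members with the highest scores had 327, 277, 19.0 and 21.7 CPM of these 4 genes. That other end was led by Vim, the intermediate filament vimentin, at 3571 CPM against 278 CPM at the Ly6d end. Crip1, a small LIM-domain protein, was 4382 CPM against 491 CPM there, and Lgals3, the lectin galectin-3, was 1214 CPM against 26.4 CPM. Klf4, a zinc-finger factor of monocytes, was 802 CPM at the Vim end against 51.2 CPM at the Ly6d end.

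Siglech and Ccr9, which had chosen the members, were lower at the Vim end, as a description: Siglech was 2739 CPM at the Ly6d end and 770 CPM at the Vim end, and Ccr9 was 2042 and 354 CPM. Tlr7 was 163 CPM at the Ly6d end and 27.2 CPM at the Vim end, and Cd4 was 219 and 13.6 CPM. Among transcription factors, Spib, an Ets factor of pDC and B cells, was 762 and 113 CPM, Irf7 203 and 58.4 CPM and Irf8 3228 and 1408 CPM, while Tcf4 was 2545 and 1794 CPM and Runx2 685 and 459 CPM. Ly6c2, a surface antigen of monocytes and pDC, was 1728 and 1818 CPM. Cx3cr1, the fractalkine receptor that marks transitional dendritic cells, a type between pDC and conventional dendritic cells, had 0 UMIs at the Ly6d end and a UMI in 50.0% of the 58 members at the Vim end. Ccr2, a chemokine receptor of monocytes, was 106 CPM at the Ly6d end and 422 CPM at the Vim end, while Cd74 was lower at the Vim end, at 1893 CPM against 5900 CPM. Of the transitional markers, Axl had a UMI in 5.17% of the members at the Vim end and Siglec1 was at 0 in all pDC.

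Other measures moved along this axis too. Scrublet marked 16 of the 58 members at the Vim end and 2 of the 58 at the Ly6d end, the median depth was 12279 against 10908 UMIs, and the median summed macrophage and monocyte list was 550 against 93.3 CPM. Sftpc, a surfactant gene of alveolar type 2 cells, was 3453 CPM at the Vim end and 272 CPM at the Ly6d end. The epithelial list had a median of 1147 CPM at the Vim end and 1127 at the Ly6d end. The part of these in the axis was not tested. Members at the Vim end came from all 11 libraries: they made up 57.9% of the members of p21mTert library 1 (11 of 19) and 8.57% to 33.3% of the members of the other 10 libraries.

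**Figure D3:**
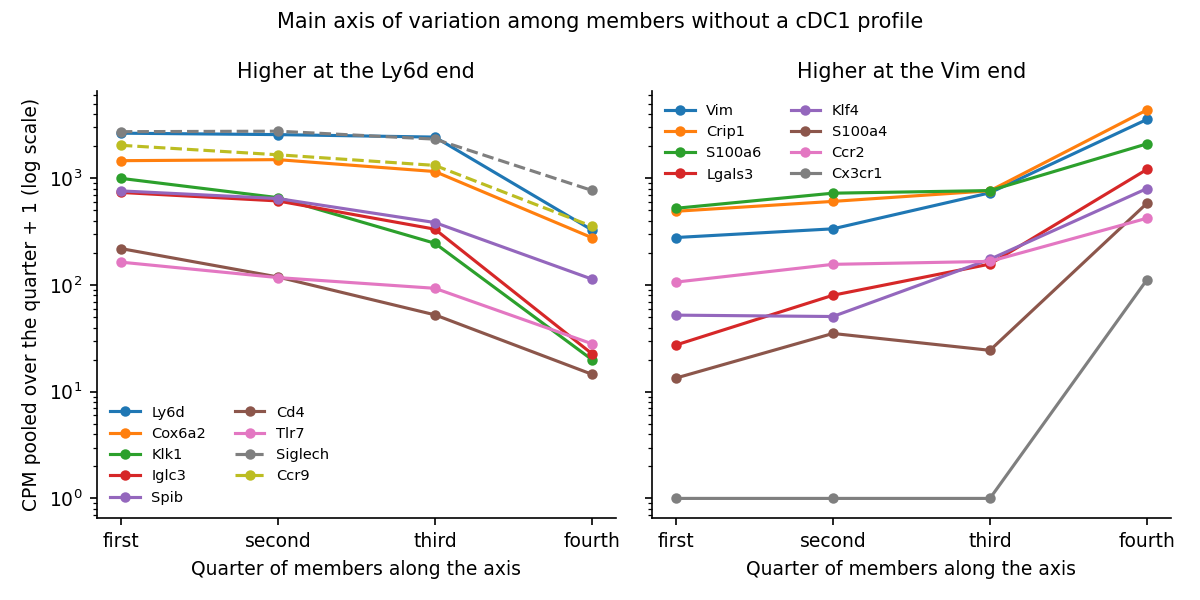
Pooled CPM plus 1 (log scale) of genes high at the Ly6d end (left; gate genes dashed) and at the Vim end (right) in 4 successive groups of the 231 members ordered along the main axis. Vim, Lgals3 and Klf4 climb mainly in the last group of members, where Klk1 and Iglc3 drop to about 20 CPM and Cx3cr1 leaves 0.

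The share of pDC was compared between genotypes, over libraries, to ask whether the mTert or mTertCD allele went with more or fewer of these cells. Their number per library was small, from 7 to 43 barcodes. In p21Het pDC made up 0.322%, 0.411% and 0.733% of passing barcodes (0.488% ± 0.217, SD, n = 3). In p21mTert they made up 0.321%, 0.292%, 0.174%, 0.144% and 0.381% (0.263% ± 0.100, SD, n = 5). All but 1 of the p21mTert libraries lay below the lowest p21Het library, library 1 only just (0.321% against 0.322%), and library 5 lay above it, so the groups overlapped. In p21mTertCD the libraries lay far apart, at 0.107% and 0.625% (0.366% ± 0.367, SD, n = 2). The WT library held 0.329% (exact 95% binomial interval 0.195% to 0.520%).

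Relative to p21Het, p21mTert differed by −0.226 percentage points, which did not pass (two-sided exact permutation test, p = 0.0536, Benjamini-Hochberg adjusted over 6 share tests 0.321, smallest p possible 0.0179). It rested on p21Het library 3, without which it was −0.103 percentage points (exact permutation p = 0.190). Without the 7 cDC1-profile members it was −0.240 percentage points (exact permutation p = 0.0357, adjusted 0.214), and within the later submission alone −0.324 percentage points (exact permutation p = 0.0667, the smallest possible). The earlier submission held 1 library of each of 3 groups and gave no test. The difference of p21mTert minus p21mTertCD was −0.103 percentage points (exact permutation p = 0.571, adjusted 0.810). That between p21mTertCD and p21Het was −0.122 percentage points (exact permutation p = 0.700, adjusted 0.810, smallest p possible 0.1). Without the 7 cDC1-profile members these were −0.110 and −0.130 percentage points. With 2 p21mTertCD libraries so far apart, either direction of those 2 differences turned when 1 of them was left out: p21mTert minus p21mTertCD was 0.156 percentage points without p21mTertCD library 2, and p21mTertCD minus p21Het was 0.137 percentage points without p21mTertCD library 1.

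Set against the other dendritic gates, the pDC share was 16.9%, 12.4% and 24.4% in p21Het (17.9% ± 6.09, SD, n = 3) and 16.5%, 17.6%, 10.5%, 6.43% and 19.8% in p21mTert (14.2% ± 5.53, SD, n = 5). It was 5.04% and 20.5% in p21mTertCD (12.8% ± 10.9, SD, n = 2) and 16.7% in WT. The groups overlapped here as well, and the difference of p21mTert minus p21Het was −3.75 percentage points (exact permutation p = 0.393, adjusted 0.810). Without p21Het library 3 it was −0.496 percentage points, and without p21Het library 2 it was −6.53. The other 2 differences were 1.41 percentage points for p21mTert minus p21mTertCD (exact permutation p = 0.810, adjusted 0.810) and −5.16 for p21mTertCD relative to p21Het (exact permutation p = 0.500, adjusted 0.810). Both turned direction without p21mTertCD library 1, to −6.31 and 2.55 percentage points. Without the 7 cDC1-profile members the 3 differences were −4.38 for p21mTert minus p21Het, 1.13 for p21mTert minus p21mTertCD and −5.51 percentage points for p21mTertCD minus p21Het, with adjusted exact permutation p from 0.786 to 0.857. Whether the digest released the same part of the pDC in every lung cannot be read from these shares.

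**Figure D4:**
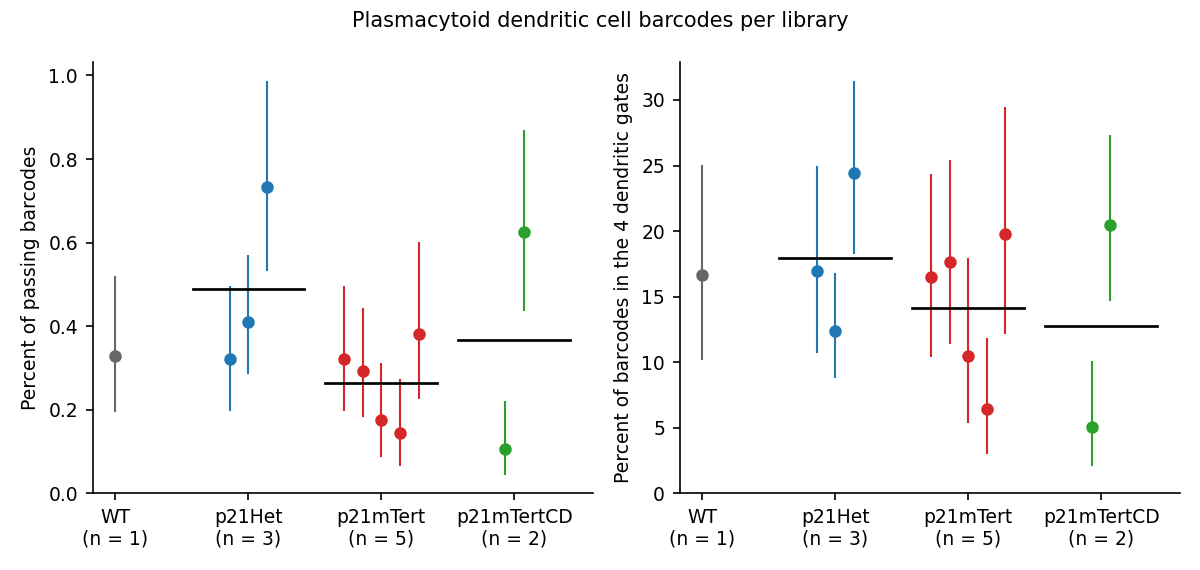
Percent of passing barcodes (left) and of barcodes in the 4 dendritic gates (right) that were pDC, 1 point per library with its exact 95% binomial interval, and the group mean as a black line. The p21mTertCD libraries lie at 0.107% and 0.625% on the left, on either side of every p21mTert library.

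Cdkn1a, the targeted gene, was low in pDC. By library it was 70.3 CPM in WT, 40.7, 66.8 and 66.1 CPM in p21Het, 19.8, 26.8, 92.3, 46.6 and 8.46 CPM in p21mTert, and 0 and 14.4 CPM in p21mTertCD. The p21mTert libraries spread to both sides of p21Het, and both p21mTertCD libraries lay below all 3 p21Het libraries, as they did for 14% of the genes tested below. Pooled over members the level was 61.9 CPM in p21Het (70 UMIs, exact 95% Poisson interval 48.3 to 78.2), 33.0 CPM in p21mTert (32 UMIs, 22.6 to 46.6) and 11.8 CPM in p21mTertCD (6 UMIs, 4.34 to 25.7). These intervals cover counting error only, not the spread between libraries or members. In edgeR's quasi-likelihood test on UMIs summed per library, the log2 fold change was −0.80 ± 0.54 (SE) for p21mTert relative to p21Het (edgeR adjusted p = 0.962) and −1.98 ± 0.87 for p21mTertCD relative to p21Het (edgeR adjusted p = 1.00), so that neither passed. The WT level came from 14 UMIs in 2 of its 18 members, and without the 7 cDC1-profile members it was 0 CPM. The p21mTert libraries then had 0, 26.8, 49.5, 57.1 and 9.26 CPM, and the log2 fold change relative to p21Het was −1.56 ± 0.57 (SE, edgeR adjusted p = 0.936). All other barcodes had a mean of 152 CPM. Every group keeps at least 1 wild-type Cdkn1a copy by its label, so this level does not check the labels.

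Tert was at the limit of detection. All 238 pDC held 3 Tert UMIs: 1 in p21Het library 3 and 2 in 1 member of p21mTert library 4, with 0 in WT and p21mTertCD. Pooled, this was 2.06 CPM in p21mTert (exact 95% Poisson interval 0.250 to 7.45) and 0.884 CPM in p21Het (0.0224 to 4.93), and these intervals overlap. Of the 10 genes of telomerase and the telomere-binding shelterin complex, 3 passed the filter on low counts, and 0 of these 3 had p under 0.05 in any of the 3 contrasts.

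Gene levels within pDC were tested with edgeR on libraries with at least 10 members, which left 3 p21Het, 4 p21mTert (library 4 had 9 members) and 1 p21mTertCD library (library 1 had 7 members). The lone p21mTertCD library is assumed to vary like the other groups. In p21mTert minus p21Het, 2 of 5459 genes were called higher (0.0366%) and 0 lower (0%) at an adjusted p under 0.05. At an unadjusted p under 0.05 there were 302 genes, with 184 of the 5459 higher and 118 lower. List counts for this contrast below are to be read against these. The median log2 fold change over all genes was 0.03. The 2 called genes were Gm42031 and Id2. Over all 5 p21mTert and 3 p21Het libraries, 1.08% of the 5459 genes were higher without overlap and 2.88% lower.

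Gm42031 is a long intergenic non-coding RNA gene with no function known here, on the minus strand of chromosome 8 from 85125872 to 85132289 (mouse build mm10), with no other annotated gene overlapping it. Its level in pDC was 10.2, 10.7 and 8.93 CPM in p21Het and 98.9, 72.6, 35.5, 93.2 and 63.5 CPM in p21mTert, with 0 and 24.1 CPM in p21mTertCD and 5.02 CPM in WT. All 5 p21mTert libraries lay above every library of the other groups, although without the cDC1-profile members p21mTert library 3 had 16.5 CPM, below p21mTertCD library 2. The log2 fold change for p21mTert minus p21Het was 2.85 ± 0.42 (SE, edgeR adjusted p = 0.0369). Without the 7 cDC1-profile members it was 2.71 (edgeR adjusted p = 0.463), and without those and the 10 members rich in other cells' genes 2.83 (edgeR adjusted p = 0.0162). The latter fit also lost p21mTert library 3, left with 8 members, so the regained call cannot be credited to the members removed alone. With all members but without that library the log2 fold change was 3.00 (edgeR adjusted p = 0.0213). Leaving out any 1 library kept the direction, but the call held only without p21mTert library 3 or p21mTertCD library 2, and over all 23 alternatives the log2 fold change ran from 2.50 to 3.18 with the call kept in 11.

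The same gene differed in the rest of the lung. In all other barcodes Gm42031 was 3.66, 11.9 and 9.77 CPM in p21Het and 33.6 to 83.4 CPM in p21mTert, and in the B cell gate it was 8.62 to 26.1 CPM and 80.6 to 153 CPM. On the scale of log2(CPM + 10) the p21mTert minus p21Het difference was 1.99 in pDC and 1.63 in other barcodes. The difference between these 2 effects was 0.36 and did not pass (two-sided exact permutation test over 5 and 3 libraries, p = 0.179, adjusted over 2 genes 0.179).

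Id2, an inhibitor of E-protein transcription factors such as E2-2 that is made by cDC1, lies on the minus strand of chromosome 12 from 25093799 to 25097140 (mm10). Its level in pDC was 5.09, 8.02 and 5.36 CPM in p21Het and 39.6, 49.7, 99.4, 124 and 135 CPM in p21mTert, with 173 and 2.41 CPM in p21mTertCD and 447 CPM in WT. The p21mTert libraries all lay above the p21Het libraries, and WT lay above all of them. The log2 fold change for p21mTert minus p21Het was 3.68 ± 0.56 (SE, edgeR adjusted p = 0.0369). Id2 had a UMI in 22 of 238 members, among them all 7 with the cDC1 profile, which held 3 to 51 UMIs each.

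Without those 7 members the Id2 call was lost. The p21mTert libraries then had 27.2, 49.7, 0, 28.5 and 18.5 CPM, the p21Het libraries were as before, and WT and p21mTertCD library 1 were at 0 CPM. The log2 fold change was then 2.00 ± 1.20 (SE, edgeR adjusted p = 1.00), and with the 10 members rich in other cells' genes left out as well it was 3.32 ± 1.33 (edgeR adjusted p = 1.00). That second fit lacked p21mTert library 3, the one at 0 CPM, which was left with 8 members. Against other barcodes, where Id2 was 197 to 245 CPM in p21Het and 183 to 237 CPM in p21mTert, the effect in pDC minus the effect in other cells was 2.52 on the log2(CPM + 10) scale (exact permutation p = 0.0179, the smallest possible, adjusted 0.0357). Gm42031 and Id2 were taken into this test because their effect in pDC had passed in the same libraries, so these p are not independent of that choice. Without the 7 members the Id2 value was 0.92 (exact permutation p = 0.161). Leaving out 1 library at a time, the call with all members held only without p21mTert library 1 or p21mTertCD library 2, and over 23 alternatives it was kept in 7, with a log2 fold change from 0.42 with a looser gate (Siglech and Ccr9 sum of at least 2, Siglech at least 1) to 4.67 with Scrublet-marked barcodes left out. The looser gate brought p21mTert library 4 and p21mTertCD library 1 into the fit, and the removal of marked barcodes took p21mTert library 3 out of it.

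**Figure D5:**
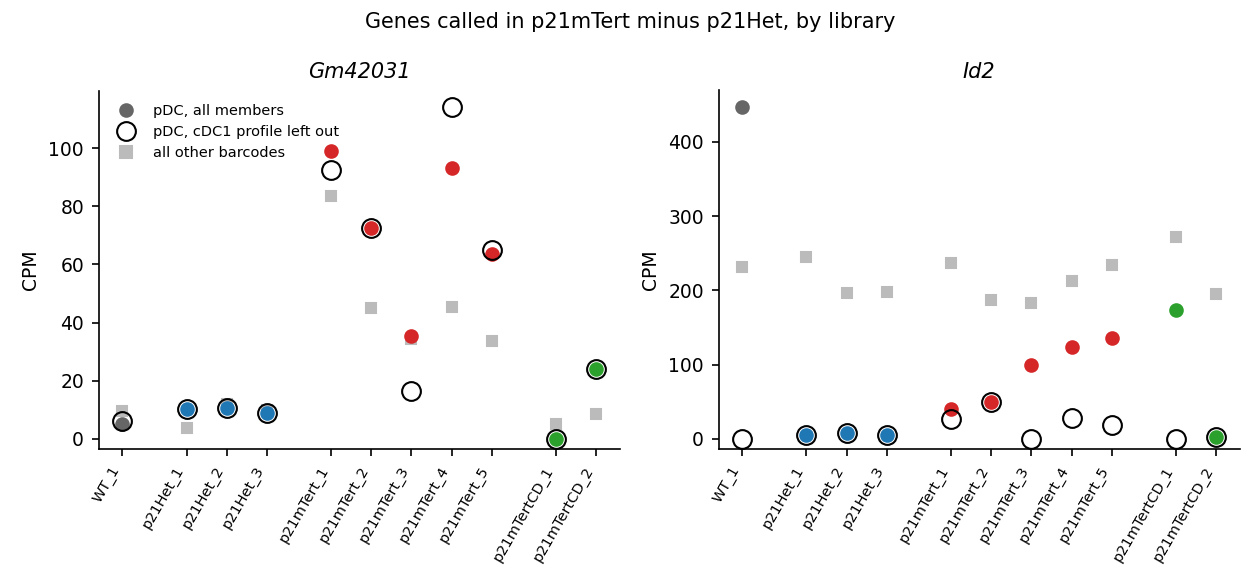
CPM by library of Gm42031 (left) and Id2 (right) in pDC (filled circles), in pDC without the 7 cDC1-profile members (open circles) and in all other barcodes (grey squares). For Gm42031 the open circles move to 16.5 CPM in p21mTert library 3 and 114 CPM in library 4 and stay near the filled ones elsewhere, and for Id2 the open circles of WT, p21mTert library 3 and p21mTertCD library 1 lie at 0 CPM.

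Among the fixed lists, antigen presentation was the one with the most members at low p in p21mTert minus p21Het, and 0 of them were called. Of its 18 genes 12 were tested, 6 had an unadjusted p under 0.05 and were higher, 0 were lower, and the median log2 fold change was 0.62 against 0.03 over all genes. Without the 7 cDC1-profile members 0 of 9 tested genes had p under 0.05, and the median was 0.03 against 0.01 over all genes. H2-Eb1 was 407, 984 and 750 CPM in p21Het and 1341, 1150, 1973, 1888 and 1235 CPM in p21mTert, a log2 fold change of 1.06 ± 0.28 (SE, edgeR adjusted p = 0.556). Without the 7 cDC1-profile members it was 0.23 ± 0.32 (edgeR adjusted p = 1.00), H2-Ab1 went from 0.76 to 0.03, H2-Aa from 0.70 to 0.18 and Cd74 from 0.45 to −0.01. The cDC1 marker list moved alongside: 4 of its 5 tested genes had p under 0.05 and were higher, its sum was 134 to 183 CPM in p21Het and 115 to 536 CPM in p21mTert, and with the 17 members of both kinds left out it was 123 to 190 and 124 to 219 CPM.

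Genes of other lung cells also varied between the libraries, and 0 were called. Of the epithelial list 6 of 8 genes were tested, 4 had p under 0.05 with a negative log2 fold change, and the sum was 793 to 9270 CPM in p21Het against 894 to 1850 CPM in p21mTert. With the 17 members of both odd kinds left out 4 genes were tested, of which 0 were lower and 1 higher at p under 0.05. The median log2 fold change was then −0.53, against −2.92 with all members. Sftpc was 341, 6779 and 202 CPM in p21Het and 229 to 327 CPM in p21mTert, with a log2 fold change of −3.11 (edgeR adjusted p = 0.611). Without the 10 members rich in other cells' genes and the 7 with the cDC1 profile, p21Het library 2 had 640 CPM and the log2 fold change was −0.39 (edgeR adjusted p = 1.00). Of the fibroblast list 3 of 5 tested genes had p under 0.05 and were higher, with a sum of 168 to 307 CPM in p21Het and 180 to 5287 CPM in p21mTert, the top value being p21mTert library 3. With the 17 members of both odd kinds left out 1 gene was tested, 0 had p under 0.05, and the sums were 178 to 312 and 71.5 to 238 CPM. The filter on low counts could pass a gene on 1 library. A direction set by p21mTert library 3 alone therefore cannot be read as one of the group. Of the macrophage and monocyte list 2 of 5 tested genes had p under 0.05 with a negative log2 fold change, with a sum of 211 to 3617 CPM in p21Het and 218 to 761 CPM in p21mTert. With the 17 left out 1 of 3 tested genes was lower at p under 0.05. The median log2 fold change was then 0.21, against −1.41 with all members, and the sums 200 to 582 and 227 to 667 CPM. Of the erythroid list 1 of 4 tested genes had p under 0.05 with a negative log2 fold change (all 4 with the 17 odd members left out, median −1.56), with a sum of 25.5 to 1513 CPM in p21Het and 77.7 to 1093 CPM in p21mTert. The part of these cells in the other differences was not tested beyond the values given with the 17 members left out, a setting in which p21mTert library 3 was not in the fit.

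The genes that define pDC did not pass in this contrast. Of the 30 identity genes tested, 1 had p under 0.05, Cd300c, with a log2 fold change of 0.61, 0 were called, and the median log2 fold change was −0.01. Bst2 had a log2 fold change of −0.00, Irf8 of −0.01 and Tcf4 of 0.02. Of the nucleic acid sensing list 14 of 17 genes were tested, 1 had p under 0.05 and was higher, and the median was −0.05. Of 29 secretory genes tested 0 had p under 0.05, with a median of −0.07, and of 18 migration genes 1 was higher at p under 0.05, with a median of 0.07.

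Interferon-stimulated genes gave 4 of 13 tested genes at p under 0.05, all higher in p21mTert and 0 called, with a median log2 fold change of 0.48. Over all genes, 184 of 5459 were higher at that p. Isg15 was 5.09, 16.0 and 8.93 CPM in p21Het and 39.6, 61.2, 85.2, 0 and 42.3 CPM in p21mTert. Its log2 fold change was 2.44 ± 0.52 (SE, edgeR adjusted p = 0.420), over libraries that exclude p21mTert library 4, the one at 0. Without the 7 cDC1-profile members it was 2.47 ± 0.52 (SE, edgeR adjusted p = 0.523). Then 5 of 12 tested list genes were higher at p under 0.05, with a median of 0.47. With the 17 members of both odd kinds left out the Isg15 value was 1.62 ± 0.88 (edgeR adjusted p = 1.00), and 3 of 11 tested list genes had p under 0.05. That last fit lacked p21mTert library 3, the highest at 85.2 CPM, which was left with 8 members. The summed list overlapped between groups, at 1189 to 1334 CPM in p21Het and 917 to 2140 CPM in p21mTert. Of 9 tested p53 targets 2 were higher at p under 0.05 with a median of 0.23: Btg2, an antiproliferative gene, had a log2 fold change of 0.61 (adjusted p = 0.670) and Trp53inp1, a p53-induced nuclear protein, of 0.91, while 0 of 5 tested cell cycle genes had p under 0.05. Of the 9 p53 targets 1 was higher and 1 lower at p under 0.05 without the 7 cDC1-profile members, with a median of 0.10.

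The other genes with the lowest p in this contrast were not called. They were Gm47283, a protein-coding gene of the Y chromosome in the annotation, with a log2 fold change of 1.63 (edgeR adjusted p = 0.311), and Csf2ra, the α chain of the GM-CSF receptor, with 1.48 (adjusted p = 0.420), or 0.97 (adjusted p = 0.936) without the 7 cDC1-profile members. On the lower side they were 4833439L19Rik with −1.64, Wfdc2, a secreted protein of airway epithelium, with −2.98, and Mfhas1, a GTPase-like protein, with −1.28 (adjusted p from 0.527 to 0.556). Mfhas1 was lower without overlap, as 2.88% of genes were, at 45.8, 50.8 and 58.9 CPM in p21Het and 24.7, 15.3, 21.3, 15.5 and 21.1 CPM in p21mTert. Wfdc2 did overlap, since p21mTert library 4, outside the fit, had 218 CPM.

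In p21mTert minus p21mTertCD, the contrast of the 2 alleles, edgeR called 0 of 5459 genes (0%), with 216 at an unadjusted p under 0.05, and DESeq2 called 0. With 1 p21mTertCD library in the fit, these values contrast 4 libraries with 1. The lowest p was that of Btaf1, a TATA-binding protein-associated factor, at 14.8, 22.9, 14.2, 15.5 and 25.4 CPM in p21mTert and 10.8 and 96.3 CPM in p21mTertCD (log2 fold change −2.21 ± 0.40, SE, edgeR adjusted p = 0.428). The p21mTertCD library outside the fit thus lay below every p21mTert library, opposite to the one in the fit. The same held for Tmem229b, a membrane protein gene, with a log2 fold change of −1.06, and for Slco4a1, an organic anion transporter, with −1.58: each was lowest in p21mTertCD library 1 and highest in p21mTertCD library 2. On the higher side Id2 had 4.87, Csf2ra 2.35 and Carhsp1, an RNA-binding protein, 2.21. Without the 7 cDC1-profile members Id2 had 3.21 ± 2.08 (SE) and Csf2ra 1.86 (edgeR adjusted p = 1.00 for both), and Carhsp1 had 2.30. Id2 was 173 CPM in the p21mTertCD library outside the fit, which held a cDC1-profile member.

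By list in that contrast, 4 of 30 identity genes were lower in p21mTert at p under 0.05 and 0 higher, with a median log2 fold change of −0.44 against 0.03 over all genes (2 lower and −0.35 without the 7 cDC1-profile members). The 4 were Cox6a2, Upb1, Smim5, a small membrane protein gene, and Cd8b1, a T cell co-receptor chain. Cox6a2 was 1355 CPM in the p21mTertCD library of the fit and 466 CPM in the other, against 497 to 989.8 CPM in p21mTert, so the p21mTertCD libraries lay on either side of p21mTert. Of the members of p21mTertCD library 2, in the fit, 8.57% lay at the Vim end, against 18.2% to 57.9% in p21mTert. Cox6a2, Smim5 and Cd8b1 were 277, 84.2 and 21.7 CPM at that end and 1464, 467 and 245 CPM at the Ly6d end. The part of this was not tested. The summed identity list ran from 13658 to 21885 CPM in p21mTert and was 11823 and 26334 CPM in the 2 p21mTertCD libraries. Lists of other cells moved as well, with a median log2 fold change of 2.90 for erythroid and 0.86 for transitional dendritic markers. Of 13 interferon-stimulated genes 2 were higher and 2 lower at p under 0.05, with a median of −0.11. Of 12 tested antigen presentation genes 1 was higher at p under 0.05 and the median was 0.77, and without the 7 cDC1-profile members 0 of 9 were and the median was 0.01. The summed antigen list was 10759 to 15546 CPM in p21mTert and 8719 to 14099 CPM in p21mTertCD, and with the 17 members of both odd kinds left out 6901 to 11375 and 4051 to 8719 CPM.

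In p21mTertCD minus p21Het edgeR called 0 of 5459 genes (0%), with 168 at an unadjusted p under 0.05 and a smallest adjusted p of 1.00, and DESeq2 called 0. Ifi27l2a was 524, 428 and 446 CPM in p21Het and 759 and 1047 CPM in p21mTertCD, without overlap (log2 fold change 1.23 ± 0.30, SE, edgeR adjusted p = 1.00). Over both p21mTertCD libraries and the 3 p21Het libraries, 6.81% of the 5459 genes were higher without overlap in this way and 14% lower. The summed interferon-stimulated list was 1189 to 1334 CPM in p21Het and 2287 to 2438 CPM in p21mTertCD, also without overlap. Ifi27l2a is part of that sum, so the 2 are not separate results. The epithelial and cDC2 lists did not overlap either, both lower in p21mTertCD. The cDC2 sums were 1745 to 1801 CPM in p21Het and 1691 to 1728 CPM in p21mTertCD. Of its 13 tested genes 3 were higher at p under 0.05 and 0 lower, with a median log2 fold change of 0.88 against −0.02 over all genes. Markers of other cells moved in the same contrast: all 4 tested erythroid genes had p under 0.05 with a negative log2 fold change (median −4.11), and the list summed to 25.5 to 1513 CPM in p21Het and 43.3 to 368 CPM in p21mTertCD. Of 6 tested epithelial genes 2 did so (median −2.93), with sums of 793 to 9270 and 681 to 737 CPM. With the 17 odd members left out the erythroid median was −4.06 and the epithelial −0.68, while the interferon-stimulated list had 4 of 11 tested genes higher at p under 0.05 and a median of 0.86. The part of these cells was not tested further. Gm21762 had a log2 fold change of 1.22 and Grasp, a scaffold protein gene, of 1.24. On the lower side Ube2j2, a ubiquitin-conjugating enzyme, had −2.29, Lgmn, the lysosomal protease legumain, −1.68 and Tppp3, a tubulin-binding protein of ciliated cells, −2.17. Lgmn was 96.7, 74.8 and 76.8 CPM in p21Het and 32.5 and 24.1 CPM in p21mTertCD, lower without overlap as 14% of genes were, and Ube2j2 was 75.9 CPM in the p21mTertCD library outside the fit, above all 3 p21Het libraries. These contrasts share libraries: p21Het serves as control in 2 of them and p21mTertCD library 2 enters 2.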

How the data were processed

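Per the labels, lung cells were run on a droplet 3′ assay with the V2 kit. Reads were mapped to mm10 with Cell Ranger, per the submitters' processing notes; its version is not given here because the sources differ. The deposited files hold raw UMI counts of 31053 genes, 1 matrix per library, for barcodes with at least 500 UMIs. The study's limits on UMIs (1000 and 30000) and on mitochondrial share (14%) were then applied. The members and all gene lists were chosen with earlier results of these data known. Depth was 92276 to 560100 UMIs summed over the pDC of a library.

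Shares were compared across libraries with exact permutation tests (two-sided, difference of group means) and carry exact Clopper-Pearson intervals. UMIs summed over the pDC of a library were tested with edgeR 4.0.16 (filterByExpr, TMM, glmQLFit and glmQLFTest on 8 libraries). Calls used Benjamini-Hochberg over 5459 genes at a threshold of 0.05, and DESeq2 1.42.0 was an alternative. In simulated counts with 200 genes changed 8-fold, the fit recovered 170 and made 6 false calls. The simulation used 1 fixed spread and held no odd members, so it cannot speak for calls that rest on such members. Comparison gates, all with Siglech at 0, were cDC1 (Xcr1 and Clec9a at least 2 UMIs), cDC2 (Cd209a at least 2), mature DC (Ccl22 and Fscn1 at least 3) and B cell (Cd79a at least 3, Ms4a1 at least 1). Scanpy 1.11.5 ran Scrublet at 0.8% per 1000 barcodes. The main axis is the first principal component of the members' log-normalised counts. Gene positions are from the mm10 annotation.

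Genes named by rule were the gate genes, Bst2, Cdkn1a and Tert, the 25 genes with the highest ratio of CPM + 10 to other barcodes among those found in at least 25% of members, the 4 highest of each list, up to 10 called genes per direction and, where fewer than 3 were called, the 3 with the lowest p per direction. Other list members and the axis genes were chosen after their values were seen. Some genes that the rule names are not reported here.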

Additional observations from a re-analysis of the deposited data

Results flagged for a closer look

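Each value of the p21mTert group was checked for 1 library lying far from the other 4 (gap over range above 0.710). Of 113 quantities 10 were found, and no cause was tested. The limit gives about 1 in 20 by chance only for normally distributed values, which sparse counts are not. Some of the quantities also share genes, so the 10 cannot be read as more than chance. Marker sums in pDC stood out at 312 CPM for the NK list in p21mTert library 1 (group median 7.64), 178 CPM for neutrophil markers in library 1 (median 25.4), 646 CPM for endothelial markers in library 2 (median 220.0) and 5287 CPM for fibroblast markers in library 3 (median 208). Library 4, with 9 pDC, gave 4 of the 10: Tert at 15.5 CPM (2 UMIs, median 0), Wfdc2 at 218 CPM (median 9.89), Tppp3 at 505 CPM (median 124) and a low Lgmn at 15.5 CPM (median 63.9). Ikbkb, a kinase of NF-κB signalling, was 351 CPM in library 1 (median 172) and Calr 673 CPM in library 5 (median 371).

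The Id2 difference of p21mTert minus p21Het was larger in pDC than in other cells by 2.52 on the log2(CPM + 10) scale (exact permutation p = 0.0179, the smallest possible), and by 0.92 (p = 0.161, exact permutation) without the 7 cDC1-profile members. Id2 was taken into this test because its effect in pDC had passed in the same libraries, so the p is not independent of that choice.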

How the results depend on the processing

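Over 97 alternatives to the 6 share differences, 90 kept their direction, and adjusted p, not computed for the replicate block, ran from 0.114 to 1. Leaving out 1 library gave p21mTert minus p21Het −0.309 to −0.103 percentage points of passing barcodes and −6.53 to −0.496 of dendritic gates. It gave p21mTert minus p21mTertCD −0.363 to 0.156 and −6.31 to 9.13, and it gave p21mTertCD relative to p21Het −0.382 to 0.137 and −12.9 to 2.55. Libraries with like replicate numbers in the titles had r = 0.0153 and −0.0697 over 2 pairs, and other pairs had −0.0832 to 0.134. This cannot decide whether the numbers pair the libraries. With a replicate block the share contrasts with p21mTertCD kept only library 2 of each group, so each value is 1 library minus 1 other. There p21mTertCD minus p21Het turned to 0.215 of passing barcodes and 8.10 of dendritic gates, and p21mTert minus p21mTertCD to −2.87 of dendritic gates. These turns therefore come with p21mTertCD library 1 left out and cannot be credited to the pairing. The count of 2 genes in p21mTert minus p21Het was 6 with DESeq2, 150 without a filter on low counts, 22 with the replicate block, 1 with the stricter gate, with Scrublet-marked barcodes left out or with both odd kinds of members left out, and 0 with at least 20 UMIs per gene, with the looser gate, in the later submission alone, with libraries of at least 5 barcodes or without cDC1-profile members; leaving out 1 library gave 0 to 2. The block used the later submission alone, where 0 genes were called without it, and 0 of its 22 genes were the 2 called above. Under the block only libraries 2 and 3 of p21mTert and of p21Het were left to gauge the spread, so its counts in every contrast are uncertain. The count of 0 in p21mTert minus p21mTertCD became 78 without the filter, 1 with at least 20 barcodes and 3 with the block, and 0 to 1 leaving out 1 library; that in p21mTertCD minus p21Het became 40 and 10, and stayed at 0 leaving out 1 library. The Id2 effect in pDC minus other cells was 1.27 with a pseudocount of 50 CPM (adjusted exact permutation p = 0.0714) and 3.55 with 1 CPM. The cause was not tested. Settings on members and on 5 barcodes were chosen after seeing the data. Except where that number was itself varied, a fit kept libraries with at least 10 members in its setting. The stricter gate, the removal of Scrublet-marked barcodes and that of both odd kinds therefore dropped p21mTert library 3. The looser gate added p21mTert library 4 and p21mTertCD library 1, so these settings changed libraries as well as members. The contrasts with p21mTertCD could not be fitted without its library 2. The planned removal of barcodes with other cells' UMIs was not run, since all 238 members had some. All 49 shares of members with a UMI moved beyond their interval with thinning. With 92276 to 560100 pDC UMIs per library, levels of a few CPM rest on few UMIs.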
